A study of Xenopus laevis with 12 samples.

Results

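In explants of foregut endoderm from Xenopus laevis, the African clawed frog, 135 of the 44478 gene IDs in the deposited table were lower at every dose of retinoic acid (RA) tested than in vehicle, and these members are described here. They were chosen by their measured values. In the vehicle group each averaged 3 CPM or more, CPM being the counts per ID after libraries are scaled to a common total. Its mean at 25, 200 and 500 nM RA, with 0.5 CPM added to both sides, gave a log2 ratio to vehicle at or under -1 at all 3 doses, a level of about 50% or less. Of the 16091 IDs with at least 3 CPM in vehicle, 328 met that limit at 25 nM, 196 at 200 nM and 514 at 500 nM. The members made up 41.2% of the first list, 68.9% of the second and 26.3% of the third. The rule rests on the comparisons with vehicle, so the falls from vehicle are given as a description only. The rule set no condition on differences between RA doses, but it caps the group means that those differences compare. An ID that was low at 25 nM and came back above about 50% of DMSO at 500 nM could not be a member. Nor could an ID that stayed above that level at 25 nM and was low at 500 nM. The limit was met at 25 nM alone by 47 IDs, at 200 nM alone by 9 and at 500 nM alone by 213. Counts of members higher or lower between doses are therefore shaped by the choice and are given as a description too, with edgeR values for single members from the fit over all IDs.

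The tissue came from wild-type embryos (NXR_0031 stock), dissected at NF15 (a stage of the Nieuwkoop-Faber series) and cultured for about 16 hours at 15 °C to NF25. The 4 groups held 3 pools each, with 8 explants in a pool: 0.1% DMSO as the vehicle, or RA at 25, 200 or 500 nM. The labels state neither whether the RA medium also held DMSO nor whether different clutches supplied the pools. The p-values therefore cover only variation among the pools sequenced, which may be technical. Libraries held 17782601 to 39147729 counts. Some libraries stood apart from their groups. By a chi-square of counts per degree of freedom, 200 nM replicate 1 differed from each of the other 2 by 88.3, which differed from each other by 3.16, and 500 nM replicate 2 differed from replicates 1 and 3 by 28.6 and 26.3, which differed by 2.90. At 25 nM replicates 1 and 3 differed by 50.7, and replicate 2 from them by 15.1 and 13.5, while the DMSO pairs lay at 2.93 to 5.81. In 200 nM replicate 1 the 50 most counted IDs took 35.1% of the counts, beside 23.9% to 30.1% in the other 11 libraries.

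Retinoic acid is made from vitamin A and enters the nucleus, where it binds retinoic acid receptors that sit on DNA with retinoid X receptors. Binding of RA exchanges co-repressors for co-activators on many target genes, so direct targets are often switched on, and lower transcripts can follow directly or through other regulators. In the vertebrate embryo RA helps to place organs along the front-to-back axis of the gut, from which the lungs, liver and pancreas arise. The IDs of the table carry no gene names, and 0 of the 135 members were found in the RefSeq gene table for this species. Members are therefore described by their values, with no role given, and the marker genes of endoderm or of other tissues were not looked up. For the same reason, the tissue label was not checked against markers, and no sequences are shown.

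In vehicle, the members were expressed at low to moderate levels. Their median DMSO level was 9.90 CPM (quartiles 5.04 and 22.7), against 16.2 CPM for all IDs with at least 3 CPM, and the highest member stood at 157 CPM. On the TPM scale, which corrects for transcript length and can be compared between genes, the median DMSO mean was 5.54 TPM, with a range of 0.793 to 280 TPM. By group mean, 42 members reached 10 TPM or more in DMSO, 13 did at 25 nM RA, 15 at 200 nM and 7 at 500 nM. Transcript length was read from the ratio of CPM to TPM, which grows with length and equals 1 at the average transcript of a library weighted by abundance. For the 131 members with at least 1 TPM in DMSO this ratio had a median of 1.63 (quartiles 1.06 and 2.72), beside 1.67 (1.00 and 2.65) for the 15744 such IDs in all. The 3 DMSO pools lay close together, with a median coefficient of variation (SD as a percentage of the mean) of 7.69% over the members and 6.17% over all IDs with at least 3 CPM.

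Together the members supplied 0.251% to 0.253% of all counts in the DMSO libraries. That share was 0.0779% to 0.0823% in the 25 nM libraries, 0.0720% to 0.0853% in the 200 nM libraries and 0.0474% to 0.0535% in the 500 nM libraries. The 25 and 200 nM ranges overlapped, while all 3 libraries at 500 nM lay under every other library. The rule fixes the fall of the group means from DMSO, and its caps shape the order of the doses, so both are a description only. In bulk tissue, fewer cells of a type and less RNA per cell cannot be told apart.

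**Figure D1:**
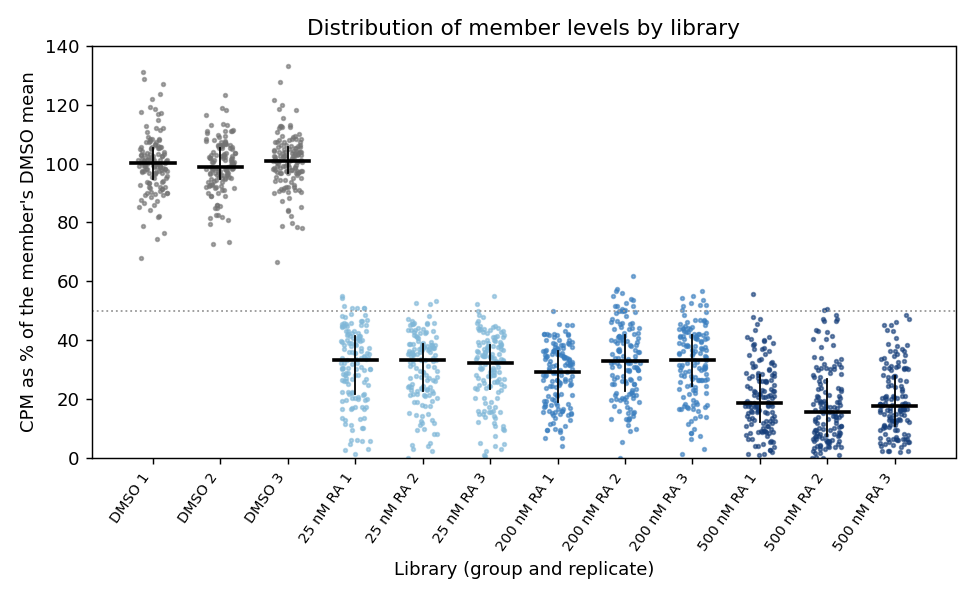
Each point is 1 of the 135 members in 1 library, as CPM in percent of that member's DMSO mean (y axis), with libraries by group and replicate on the x axis; thick bars are medians and thin bars run between the quartiles. Medians lie at 32.2% to 33.4% in the 25 nM libraries, 29.1% to 33.3% in the 200 nM libraries and 15.6% to 18.8% in the 500 nM libraries, and the dotted line marks 50%.

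The level left at 25 nM was nearly the level left at 200 nM, and a lower one was left at 500 nM. As a percentage of the DMSO mean, the median over members was 32.6% at 25 nM (quartiles 22.7% and 38.9%), 33.2% at 200 nM (22.4% and 39.9%) and 17.5% at 500 nM (10.3% and 27.2%). A group mean of 10% of DMSO or less was seen in 9 members at 25 nM, 3 at 200 nM and 32 at 500 nM. The highest level left was 46.4%, 48.8% and 47.8% at the 3 doses, which the rule itself caps. The lowest was 1.42%, 1.85% and 1.49%. The same caps shape the medians at each dose, so their order is a description only. Read library by library, the level at 500 nM was at or under 10% in 27, 46 and 30 members in replicates 1, 2 and 3.

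Since the rule used these contrasts, the calls against DMSO describe the choice. By edgeR's quasi-likelihood test over the 24454 IDs that passed a filter on low counts, with Benjamini-Hochberg adjustment and a threshold of 0.05, 135 members were lower than DMSO at 25 nM, where 20.3% of the IDs tested were called lower. At 200 nM 134 were called lower (12.9% of all tested) and at 500 nM 135 (22.6%). The remaining member at 200 nM had an adjusted p at the threshold, 0.050, with 9.54, 10.4 and 11.1 CPM in DMSO and 3.81, 5.56 and 4.39 CPM at 200 nM. In all 135 members, every library of each RA group was under the lowest DMSO library, which held for 28.5%, 23.3% and 33.4% of the IDs tested at 25, 200 and 500 nM. All 135 members passed the filter.

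As a description, the choice was also read in libraries it had not used. These were other pools of the same groups, which may be technical repeats, and no share over all IDs was counted. With replicate 1 of each group left out, the rule chose 123 IDs, and in the left-out libraries 96 of them met the limit at all 3 doses. Leaving out replicate 2 gave 146 chosen and 98 that met the limit in the left-out libraries, and leaving out replicate 3 gave 135 and 111. All of the chosen IDs were below DMSO at all 3 doses in the left-out libraries, with the weakest log2 ratio at -0.25. IDs chosen for a large fall in the other pools of the same groups are likely to be low there too. No support for the fall is drawn from this. The median log2 ratios there were -1.38 to -1.50 at 25 nM, -1.33 to -1.65 at 200 nM and -2.12 to -2.13 at 500 nM.

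There were 30 members within 0.1 log2 units inside the limit and 36 IDs within 0.1 outside it. The member nearest to the limit had a mean of 3.43 CPM in DMSO and 1.07, 1.46 and 0.633 CPM at 25, 200 and 500 nM, with its weakest log2 ratio at -1.00461. The nearest ID outside had 3.27 CPM in DMSO and its weakest ratio at -0.996589. At the floor on level, the lowest member had 3.09 CPM in DMSO. Under the floor, the highest ID that met the limit at all 3 doses had 2.97 CPM in DMSO. Its means were 0.0919, 0.0396 and 0.0239 CPM at 25, 200 and 500 nM.

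**Figure D2:**
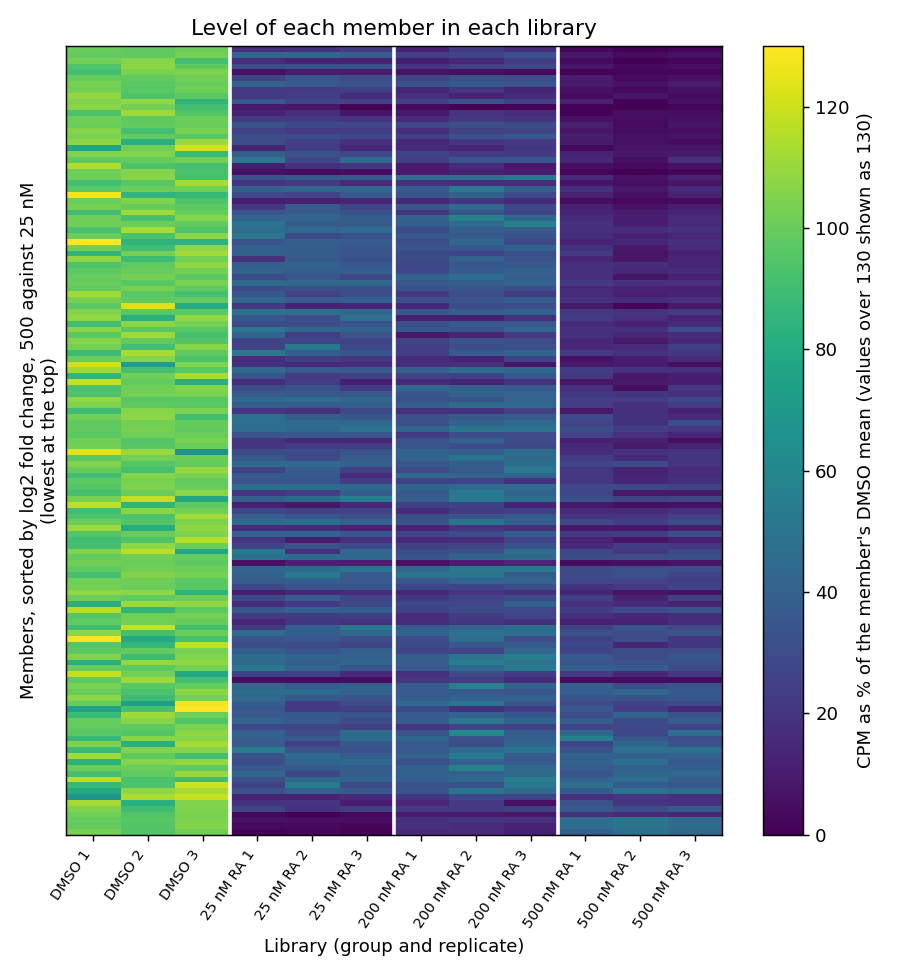
Rows are the 135 members, sorted by their log2 fold change from 25 to 500 nM RA with the lowest at the top, and columns are the 12 libraries; colour is CPM in percent of the member's DMSO mean. Most rows are darkest in the 500 nM columns, and the lowest rows of the map, members higher at 500 than at 25 nM, run the other way.

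XBXL10_1g30318 was the member whose least affected dose had the lowest ratio, with 0.5 CPM added, among those with at least 10 CPM in DMSO. By percent of DMSO without that addition it stood at 4.61%, 10.7% and 1.49% at the 3 doses, and another member, at 11.3 CPM in DMSO, had a lower level at its least affected dose, with 8.30%, 5.07% and 1.83%. It stood at 76.4, 79.7 and 69.9 CPM in DMSO replicates 1, 2 and 3, a mean of 75.3 ± 4.96 CPM (SD, n = 3). At 25 nM RA it had 4.29, 3.04 and 3.09 CPM, and at 200 nM 7.19, 9.56 and 7.36 CPM. The libraries at 500 nM held 1.40, 0.278 and 1.68 CPM, from 55, 6 and 39 counts. No RA library came near the DMSO libraries, and the 3 RA groups did not overlap each other. Between doses, it was higher at 200 than at 25 nM by 1.22 on the log2 scale (SE 0.26, edgeR adjusted p = 0.00903) and lower at 500 than at 200 nM, with a log2 fold change of -2.73 (SE 0.36, adjusted p = 0.000166). At 500 against 25 nM the log2 fold change was -1.52 (SE 0.39, adjusted p = 0.0224). That last call was lost without 25 nM replicate 1 (adjusted p = 0.0821) or without 25 nM replicate 3 (0.0517). The order of its levels was DMSO, 200, 25 and 500 nM.

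XBXL10_1g9349 had the highest DMSO level of the members and fell in smaller steps. Its DMSO libraries held 155.8, 159.9 and 155.5 CPM, a mean of 157 ± 2.46 CPM (SD, n = 3). Values were 76.6, 71.4 and 68.5 CPM at 25 nM, 54.0, 66.1 and 68.8 CPM at 200 nM, and 47.3, 47.3 and 49.0 CPM at 500 nM. In CPM, without the TMM scaling that edgeR uses (described below), the 25 and 200 nM values overlapped. The 500 nM values lay under both. From 25 to 500 nM its log2 fold change was -0.56 (SE 0.055, edgeR adjusted p = 1.54e-14), and from 200 to 500 nM it was -0.38 (SE 0.056, adjusted p = 2.92e-09). The step from 25 to 200 nM was -0.18 (SE 0.054, adjusted p = 0.00203), and it missed the threshold by limma on log2(TPM + 1), with an adjusted p of 0.0561.

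**Figure D3:**
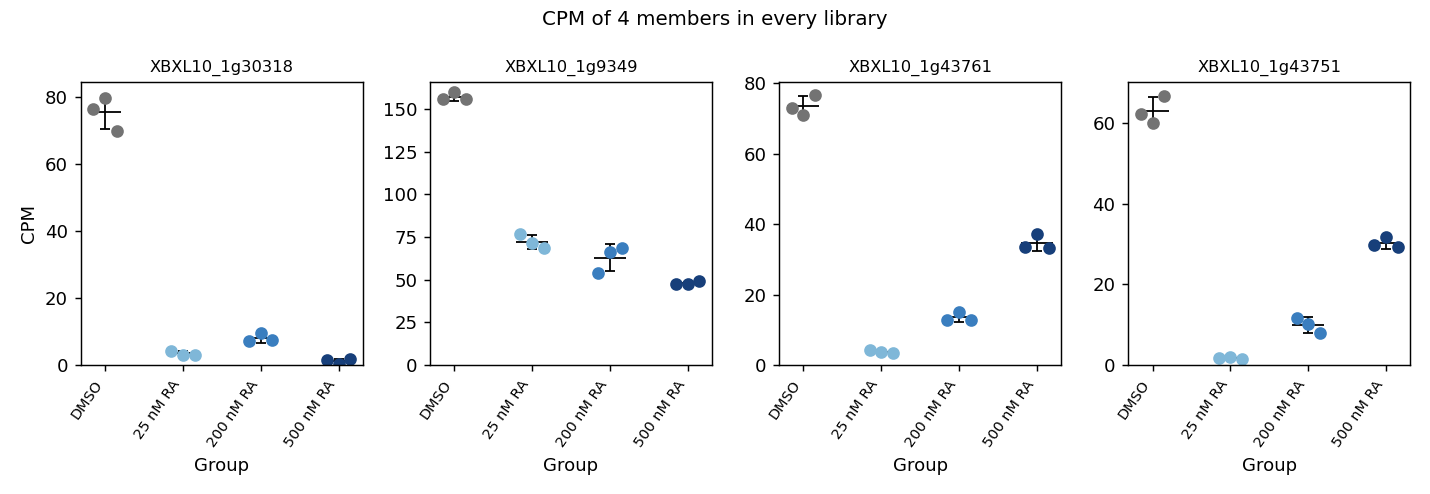
CPM (y axis, from 0) of 4 members in every library, by group on the x axis; dots are libraries, the horizontal mark is the group mean and bars are ± 1 SD of 3 libraries. XBXL10_1g30318 and XBXL10_1g9349 are lowest at 500 nM, while XBXL10_1g43761 and XBXL10_1g43751 are lowest at 25 nM and lie at 29.2 to 37.3 CPM at 500 nM.

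An edgeR F-test across the 3 RA groups called 98 of the 135 members, and 35.2% of all IDs tested. The rule caps the members' means in all 3 RA groups, so the count is not read against that share. The lowest group mean was at 500 nM in 111 members, at 25 nM in 14 and at 200 nM in 10. The IDs tested at large include many that did not respond to RA, and whether the members differ from other responding IDs was not tested.

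From 25 to 500 nM RA, 80 members were lower and 5 higher in edgeR at an adjusted p under 0.05. Over all IDs tested, 8.13% were lower and 8.85% higher, but these were not under the caps of the rule. The cap at 500 nM limits rises among the members, and the cap at 25 nM leaves out IDs that were low only at higher doses. The shares are therefore not read against each other. The median log2 fold change of the members was -0.74 (quartiles -1.27 and -0.37), beside 0.00 for all IDs (quartiles -0.15 and 0.16), and the median SE of a member was 0.23. In 93 members every 500 nM library was under every 25 nM library. The share of all IDs with this order was not counted, and the same caps shape the 93. Of the 10 members with the highest DMSO levels, at 63.0 to 157 CPM, 7 were lower at 500 than at 25 nM and 2 were higher. The largest fall between these doses was -3.37 (SE 0.54) on the log2 scale, in a member with 1.00, 1.12 and 1.40 CPM at 25 nM and 0.153, 0 and 0.129 CPM at 500 nM, from 6, 0 and 3 counts, so its size is limited by depth.

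At 500 nM 89 members were lower than at 200 nM and 4 were higher, where 15.1% of all IDs tested were lower and 14% were higher. The median log2 fold change was -0.79 (quartiles -1.33 and -0.36). Both steps came together in 74 members, which were lower at 500 nM than at each of the lower doses. The share of all IDs with both calls was not counted. The caps at 200 and 500 nM shape these calls too, so the members' counts are not read against the shares of all IDs.

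Between 25 and 200 nM members were called in both directions. At 200 nM 15 were higher and 10 lower than at 25 nM, in a comparison that called 10.2% of all IDs tested higher and 9.67% lower. The members' shares were 11.1% and 7.41%. The rule caps the members' means at 25 and at 200 nM, so these shares are not read against those of all IDs. The median log2 fold change was 0.02 (quartiles -0.18 and 0.23), with a median SE of 0.20. Of the 15 that were higher, 9 were lower again at 500 than at 200 nM. A fall at each step, from 25 to 200 and from 200 to 500 nM, was called in 8 members. For these joint calls no share over all IDs was counted. The count of 10 lower at 200 nM was 6 without 25 nM replicate 1 and 5 without 200 nM replicate 2, fits whose shares over all IDs are not given here.

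**Figure D4:**
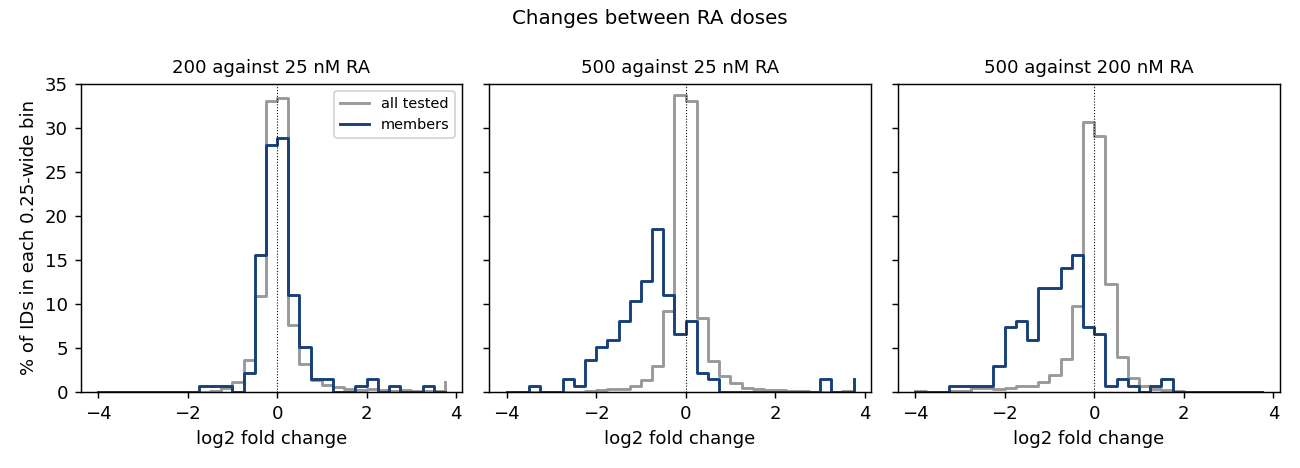
Share of IDs (y axis, percent in each bin of 0.25 log2 units) by log2 fold change between RA doses (x axis), for the 135 members and for all 24454 IDs tested; values beyond 4 are drawn in the outermost bins. For 200 against 25 nM both lines centre near 0. In both comparisons with 500 nM the members' line lies mostly at negative values, with medians of -0.74 and -0.79. The rule caps the members' means at 500 nM, so the lines are not read against each other there.

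No call in any pair of RA doses was made for 33 members. Their median DMSO level was 4.98 CPM, against 13.1 CPM for the 102 with a call. From 25 to 500 nM their log2 fold changes ran from -1.94 to 0.59, with a median of -0.14. The 95% interval around such a value, from a normal approximation and without adjustment for the number of IDs, reached a median of 0.51 to each side. Changes of that size, and larger ones in some members, could go uncalled.

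From 25 to 500 nM 5 members rose, and they were picked for description after their values were seen. XBXL10_1g43761 had 73.1, 71.0 and 76.7 CPM in DMSO and 4.40, 3.75 and 3.40 CPM at 25 nM. It had 12.8, 15.0 and 12.7 CPM at 200 nM and 33.5, 37.3 and 33.2 CPM at 500 nM. The groups did not overlap, and the order of levels was DMSO, 500, 200 and 25 nM. It rose from 25 to 200 nM by 1.83 on the log2 scale (SE 0.11, edgeR adjusted p = 1.47e-21) and from 200 to 500 nM by 1.37 (SE 0.073, adjusted p = 1.25e-22).

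XBXL10_1g43751 followed the same order. Its DMSO libraries held 62.3, 60.0 and 66.8 CPM, and the 25 nM libraries 1.82, 1.96 and 1.55 CPM. At 200 nM it had 11.7, 10.1 and 7.88 CPM and at 500 nM 29.7, 31.6 and 29.2 CPM, again with no overlap. The rise from 25 to 500 nM was 4.12 on the log2 scale (SE 0.22, edgeR adjusted p = 3.41e-10), and that of XBXL10_1g43761 was 3.20 (SE 0.10, adjusted p = 3.19e-36). At 500 nM they were back at 47.8% and 47.1% of DMSO, close to the upper limit of the rule.

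Of the other 3 that rose, the first went from 34.8 CPM in DMSO to 0.493 CPM at 25 nM, 5.01 at 200 nM and 15.0 at 500 nM, a rise from 25 to 500 nM of 4.97 (SE 0.26, adjusted p = 8.17e-26). The second, at 20.5 CPM in DMSO, had means of 4.78, 4.63 and 7.09 CPM, a rise from 25 to 500 nM of 0.61 on the log2 scale (SE 0.13, edgeR adjusted p = 0.000174). The third was low throughout, at 5.10 CPM in DMSO and 0.0980, 0.468 and 0.822 CPM, with 4, 0 and 4 counts in the 25 nM libraries, so the size of its rise (3.02, SE 0.58, adjusted p = 1.01e-06) is limited by depth.

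**Figure D5:**
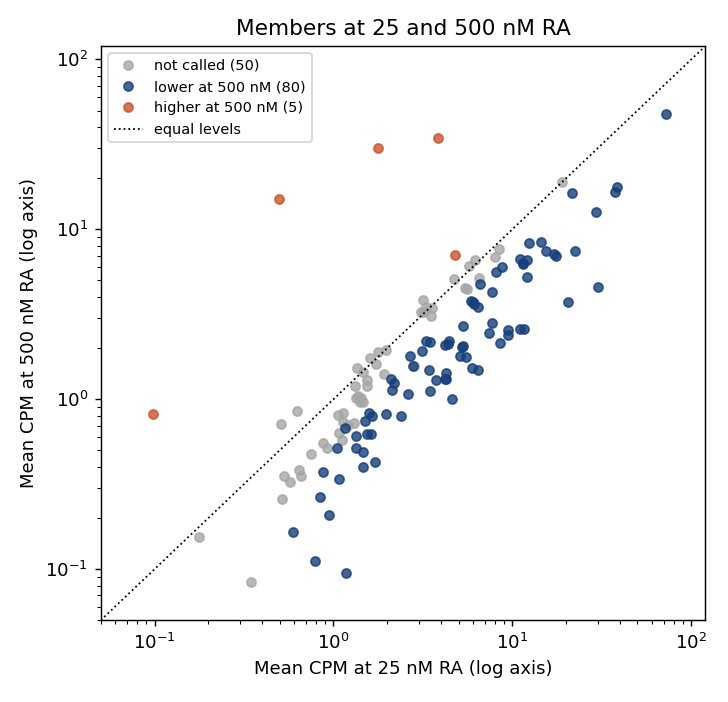
Mean CPM at 25 nM RA (x axis) and at 500 nM RA (y axis), both on log axes, for the 135 members, coloured by the edgeR call between these doses; the dotted line marks equal levels. The 80 members called lower lie under the line, and 4 of the 5 called higher lie far above it.

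Among the libraries of a group, the members' median coefficient of variation was 13.2% at 25 nM, 16.4% at 200 nM and 19.8% at 500 nM, while over all IDs with at least 3 CPM in DMSO it was 6.66%, 9.90% and 6.30%. Lower counts after the fall give more counting error, and their part in this was not tested. At 200 nM, replicate 1 held the lowest value of its group in 90 members. The TMM factor of that library, a scaling that corrects for a few IDs taking a large share, was 0.891. After TMM scaling it was lowest in 43 members, replicate 2 in 39 and replicate 3 in 53. At 500 nM, replicate 2 held the lowest value in 73 members, and in 78 after TMM scaling. Without 500 nM replicate 2, 74 members were lower at 500 than at 25 nM and 78 lower than at 200 nM. Without 200 nM replicate 1 both counts were 79. They were 72 and 89 without 25 nM replicate 1, and 73 and 88 without 25 nM replicate 3. The shares of all IDs called in these fits are not given here. A change in these counts is therefore not read as a change particular to the members.

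Another list held the 130 IDs that met the limit at 25 and 500 nM but not at 200 nM. From 25 to 500 nM, 12 of these were lower and 30 higher by the same edgeR test, with a median log2 fold change of 0.68 (quartiles -0.02 and 2.91), beside 80 and 5 and a median of -0.74 in the members. Their median DMSO level was 5.97 CPM. Both lists are shaped by their limits, and the difference between them was not tested. The 36 IDs that met the limit at 200 and 500 nM alone, and the 16 that met it at 25 and 200 nM alone, were not compared.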

How the data were processed

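RNA of 12 pools was measured. The authors deposited a table of RSEM expected counts, all of them whole, and a table of TPM values for the same libraries. RSEM 1.3.0 and Bowtie2 are named in the submitters' processing notes. For build, annotation and strand setting, the entry is not given in the sources used here. Reads of similar genes are shared out by RSEM, so near-identical copies such as the L and S copies of this species are uncertain; no member had counts identical to those of another ID. A row that names no gene, with 0 counts, was left out. The counts were tested in R 4.3.3 with edgeR 4.0.16 (filterByExpr, minimum count 10; TMM; robust quasi-likelihood, 4 groups, 12 libraries; Benjamini-Hochberg over 24454 IDs), after the steps were tested on simulated data. Standard errors came from the fitted information and quasi-likelihood dispersion. The 4 groups shared 1 estimate of the spread for each ID, although some replicate pairs of the RA groups lay further apart than any DMSO pair. The SEs and p-values of single IDs therefore do not follow the spread of the groups compared. Alternatives used DESeq2 1.42.0 and limma 3.58.1 on log2(TPM + 1) or log2(TPM + 0.1). Every pair of replicates was further apart than counting noise would put it, so each library was counted once. Intervals cover the error of the model only.

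The members and tests were chosen with earlier results of these data known. Named by rule were the member with the lowest ratio at its least affected dose (DMSO at least 10 CPM) and the member with the highest DMSO level. Marker and pathway lists were not run, since the IDs have no names.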

Additional observations from a re-analysis of the deposited data

How the results depend on the processing

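Of 295 alternative values for counts and levels, 280 stayed within 1.5 times the count reported, or within 1 SD between libraries for a level. Among them are the counts called lower than DMSO, which the rule largely fixes, so the 280 is no measure of robustness. The rule gave 118 to 143 members with 1 library left out, 67 with a DMSO floor of 10 CPM, and 133 on TPM, of which 89 were shared. The 118 came without 200 nM replicate 1, the library that stood apart, and leaving out any other library gave 131 or more. With TMM-scaled CPM the rule gave 115, all among the 135. The count higher at 200 than at 25 nM was 7 by limma on log2(TPM + 1), with or without its filter, 6 on log2(TPM + 0.1), 7 with a change of at least 2-fold and 10 to 17 with 1 library left out. The count lower was 4, 2 without the filter, 3, 2 and 5 to 11. Changes of at least 2-fold were 48 lower at 500 than at 25 nM and 53 than at 200 nM. For these no share over all IDs was counted. With 1 library left out, the calls lower at 500 nM of any size numbered 72 to 80 and 78 to 89. The F-test then called 86 to 98. Median levels at 25 nM were 34.1% with TMM-scaled CPM and 31.9% to 33.1% with 1 library left out. Of 264 alternative values for the 4 named IDs, 6 lost a call and none changed direction. Those 6 were in XBXL10_1g30318 and XBXL10_1g9349. A replicate block gave 78 members lower at 500 than at 25 nM, 87 lower than at 200 nM and 97 by the F-test. Shares of all IDs called in the alternative fits are not given here, so these counts of members stand without them. Same-numbered libraries deviated together at correlations of -0.0535 to 0.107, with 1 of 18 over 0.1, and the labels do not pair them. Depth limits members that fell under 10 counts, 24 of them in 500 nM replicate 2.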

Other observations

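Of the 5 members higher at 500 than at 25 nM RA, 3 have ID numbers that lie close together, and the other 2, among them the one with the largest rise (4.97 on the log2 scale), lie outside that stretch. XBXL10_1g43761 and XBXL10_1g43751 differ by 10 in their number. Within 15 numbers of these there were 24 IDs with at least 3 CPM in DMSO. In 8 of them, with numbers from 43750 to 43764, the means ran upwards from 25 to 200 to 500 nM and then to DMSO, with a log2 ratio at 25 nM at or under -2. Only 16 of all 16091 IDs with at least 3 CPM in DMSO had this shape. Of the 8, 3 were members, and the other 5 were at or over 50% of DMSO at 500 nM. The 8 stood at 5.10 to 98.2 CPM in DMSO. Their levels were 1.92% to 13.2% of DMSO at 25 nM, 9.18% to 24.7% at 200 nM and 16.1% to 84.4% at 500 nM. The stretch and the shape were chosen after the values were seen. The files do not say whether the numbers follow the order of genes on a chromosome, and whether these IDs share reads as similar copies was not tested.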
